A study of Mus musculus with 6 samples.

Results

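The miR-297, miR-466, miR-467 and miR-669 families are rodent miRNAs, many of which are encoded side by side in the Sfmbt2 gene. Every mature miRNA on the array whose name begins with miR-297, miR-466, miR-467 or miR-669 and does not end in a star was taken, which gave 40 of the 599 mouse miRNAs measured. They comprised 3 miR-297, 17 miR-466, 8 miR-467 and 12 miR-669 miRNAs. Small RNA of the renal cortex of 6 C57Bl6 mice was measured. Of these, 3 mice, called treated here, had received a low sodium diet (0.05%) with captopril, which inhibits angiotensin converting enzyme, at 0.5 g/L of drinking water over 10 days, and 3 control mice were left untreated. Both groups held 2 males and 1 female. All mice were 3.5 months old apart from treated replicate 1, a female of 5 months. Treated replicates 1 and 3 and control replicate 2 were stained with Cy5, and treated replicate 2 and control replicates 1 and 3 with Cy3. No transgene or mutant allele is named in the labels.

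MiRNAs are short RNAs that guide Argonaute proteins to messenger RNAs, mainly through pairing of their seed, bases 2 to 8 from the 5′ end. Sfmbt2 is an imprinted Polycomb-group gene, expressed from the paternal allele in early embryonic and extraembryonic tissue, and its intronic miRNA cluster is known from embryonic stem cells and placenta. The cluster has expanded by duplication in rodents, so many of its products differ from each other by few bases, and the mature miRNAs are rich in short repeats.

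The miRNAs that carry most of the results are shown first, with the seed in capitals. They are the target sequences of the array's probes as the deposited spot tables give them. MiR-467f, miR-466f-3p and miR-669c were the 3 above background in at least 3 samples, and no other miRNA on the array shared the seed of any of them.
miR-467f: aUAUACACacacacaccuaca
miR-466f-3p: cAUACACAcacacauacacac
miR-669c: aUAGUUGUguguggaugugugu
MiR-466i and miR-466g were above background in 1 sample each.
miR-466i: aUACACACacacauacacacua
miR-466g: aUACAGACacaugcacacaca
The passenger strands miR-467a* and miR-467b* are shown because miR-467f lay only 2 and 3 single-base edits from them.
miR-467a*: aUAUACAUacacacaccuacac
miR-467b*: aUAUACAUacacacaccaacac

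The next sequences show how alike the rest of the families are. The 40 miRNAs had 26 different seeds, of which 9 were shared by 2 or more of them and the other 17 belonged to 1 each. The largest seed groups held 4. One of these, with the seed AUGUGUG, is printed below; miR-466e-5p differed from each of the other members of the group by 1 edit.
miR-466a-5p: uAUGUGUGuguacauguacaua
miR-466b-5p: gAUGUGUGuguacauguacaug
miR-466c-5p: gAUGUGUGugugcauguacaua
miR-466e-5p: gAUGUGUGuguacauguacaua
MiR-467a has the seed AAGUGCC, which on this array was also that of miR-290-3p and miR-292-3p, products of a cluster known from embryonic stem cells.
miR-467a: uAAGUGCCugcauguauaugcg
Of the 40 miRNAs, 11 lay within 1 edit and 25 within 2 edits of another miRNA of these families, passenger strands included. A probe for one of these may therefore also take up its near relatives, and their signals cannot be fully separated here. Such uptake was not tested. MiR-467f lay 2 edits from its nearest relative, miR-466f-3p 3 and miR-669c 6.

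The name of the cluster covers most but not all of these miRNAs. By name, 38 of the 40 matched a miRNA gene in the RefSeq annotation of GRCm38.p6. That annotation places 71 miRNA genes within Sfmbt2, all of them of the miR-297, miR-466, miR-467 or miR-669 families. A gene within Sfmbt2 was found for 32 of the miRNAs, 4 of which also had a gene elsewhere, and 6 had their gene only elsewhere. These 6 were miR-466i, miR-466j, miR-466k, miR-467f, miR-467g and miR-467h, and the array's target equalled the RefSeq mature sequence letter for letter in each. They were the only 6 of the 40 for which an equal mature sequence was found there. Whether the other targets differed from their entries or had no entry was not examined. The places of the others, miR-669c and miR-466f-3p included, rest on their names alone. MiR-467f, the brightest of the 40, matched chromosome 11, positions 69635419 to 69635439 on the minus strand of GRCm38.p6, inside the span of the protein-coding gene Fxr2. MiR-466i matched chromosome 13, positions 17747552 to 17747573 on the plus strand, inside the span of Cdk13. Whether an exon or an intron holds them was not resolved with the gene table used. MiR-669c had its single matched gene within Sfmbt2, whereas miR-466f-3p matched 4 genes, 3 of them within it.

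Most of the 40 miRNAs did not pass a background threshold set from the array's empty spots in renal cortex. The threshold for a sample was the mean log2 intensity of its empty spots, which carry no probe, plus 3 of their SD, and a miRNA whose 5 spots averaged more than that counted as above background. At least 3 of the 6 samples showed this for 3 of the 40 miRNAs (7.5%), against 32.9% of all 599 probes. At least 1 sample did so for 5 of the 40 (12.5%), against 40.9% of all probes. None of the 40 was above background in all 6 samples, whereas 117 of the 599 probes were. No test of these shares was made.

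By sample, 5, 2 and 3 of the 40 miRNAs were above background in treated replicates 1, 2 and 3, against 3, 1 and 0 in control replicates 1, 2 and 3. Over all probes, 229, 132 and 201 were above background in the same treated samples, against 199, 127 and 191 in the controls. The 2 samples numbered 2 thus showed the fewest detected probes in their group overall. The threshold lay at 1.26, 1.18 and 1.18 times the median empty spot in the treated samples, against 1.23, 1.31 and 1.16 times in the controls, so a faint miRNA had to be brightest, relative to its empty spots, in control replicate 2. The median of the 40 probes lay at 1.06, 1.03 and 1.03 times the median empty spot in the treated samples, against 1.09, 1.02 and 1.09 times in the controls. The median of the other probes that were never above background lay close by, at 1.07, 1.004 and 1.02 times in the treated samples, against 1.08, 0.968 and 1.09 times in the controls.

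**Figure D1:**
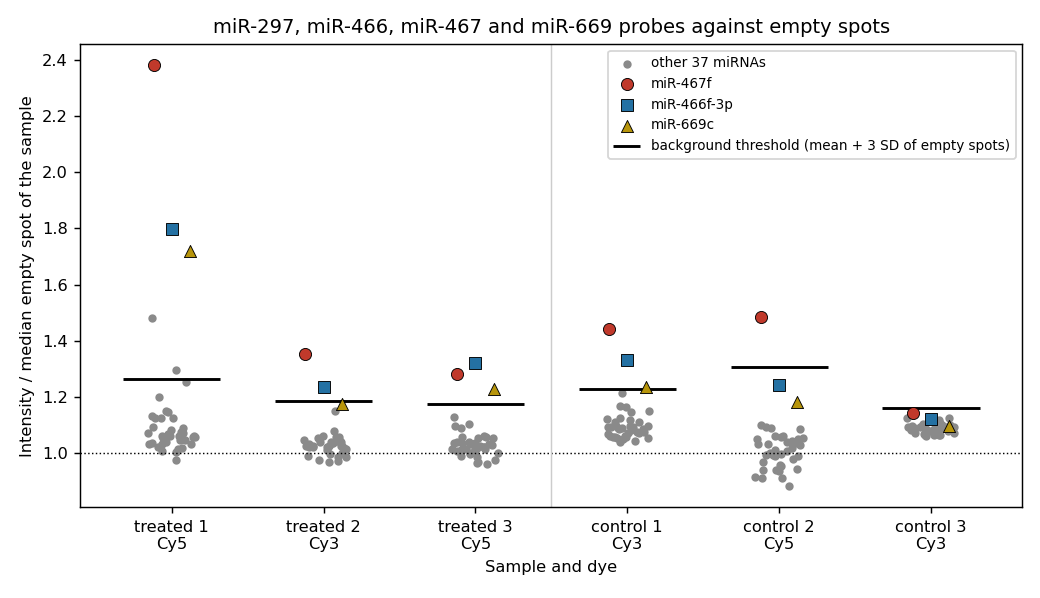
Intensity of each of the 40 miRNAs divided by the median empty spot of the same sample (vertical axis, linear) in the 3 treated and 3 control samples (horizontal axis, with the dye); each point is 1 miRNA, the black bars are the background thresholds and the dotted line marks the median empty spot. MiR-467f reached 2.38 times the empty spots in treated replicate 1, and the grey points of the other 37 miRNAs lie mostly between the dotted line and the bars.

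The tissue checks placed this low signal beside abundant renal miRNAs. Of 15 markers of renal tubule, endothelium, smooth muscle, erythrocytes and leukocytes, 11 were above background in all 6 samples. The tubular miRNA miR-192 lay at 191, 14.4 and 261 times the median empty spot in the treated samples, against 48.0, 55.1 and 47.7 times in the controls. The exceptions were miR-204 (above background in 3 samples), miR-223 (in 2), and miR-142-3p and miR-144 (in 0). Of 4 markers of tissues that cortex should lack, none was above background in all 6 samples. The neuronal miR-124 was in 0 samples, miR-133a of striated muscle in 1 and the liver miRNA miR-122 in 3, at no more than 1.62 times the empty spots. MiR-1 of striated muscle was in 2, at 2.26 times in treated replicate 1 and 4.03 times in control replicate 1.

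MiR-467f was the brightest of the 40 by its median over the 6 samples. Its spot intensity was 89.6, 620 and 44.0 in treated replicates 1, 2 and 3, against 417, 75.9 and 249.9 in control replicates 1, 2 and 3, on a scale that differs by dye. Relative to the median empty spot these were 2.38, 1.35 and 1.28 times in the treated samples, against 1.44, 1.48 and 1.14 times in the controls. All samples but control replicate 3 were above background, treated replicate 1 stood clear of the rest, and the other 2 treated samples lay within the range of the controls. The SD of the 5 spots of miR-467f ran from 0.07 (control replicate 3) to 0.15 (treated replicate 1) on the log2 scale. Its margin over the threshold was 0.92 in treated replicate 1 and 0.12 to 0.23 in the 4 other samples that passed.

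MiR-466f-3p is one arm of a hairpin whose other arm, miR-466f-5p, was also on the array. It lay at 1.80, 1.24 and 1.32 times the median empty spot in the treated samples, against 1.33, 1.24 and 1.12 times in the controls. All 3 treated samples and control replicate 1 were above background, and the groups overlapped. Its partner miR-466f-5p was above background in no sample, at 1.13, 1.04 and 1.06 times in the treated samples, against 1.09, 1.10 and 1.06 times in the controls.

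MiR-669c, whose single matched gene lies within Sfmbt2, was fainter. It lay at 1.72, 1.18 and 1.23 times the median empty spot in the treated samples, against 1.24, 1.18 and 1.10 times in the controls. Treated replicates 1 and 3 and control replicate 1 were above background, and the groups overlapped. Its margin in control replicate 1 was only 0.01 on the log2 scale. Without treated replicate 1, treated replicate 3 or control replicate 1 it no longer reached 3 samples, and 2 of the 40 miRNAs remained, miR-467f and miR-466f-3p.

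MiR-466i and miR-466g were above background in treated replicate 1 only. MiR-466i lay at 1.48, 1.15 and 1.13 times the median empty spot in the treated samples, against 1.21, 1.09 and 1.09 times in the controls. MiR-466g lay at 1.30, 1.04 and 1.09 times in the treated samples, against 1.16, 1.08 and 1.09 times in the controls. For both, treated replicate 1 was the highest of the 6 samples and the other treated samples overlapped with the controls. Treated replicate 1 was also the sample with the most probes above background on the whole array, the female of 5 months and a Cy5 sample; the part of each of these in the 5 calls was not tested.

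The other 35 miRNAs lay at or just above the empty spots. Their ratio to the median empty spot ran from 0.96 to 1.25 in treated samples, with a median of 1.03, and from 0.882 to 1.17 in control samples, with a median of 1.07. Nearest below the threshold were miR-669f, at 1.25 times in treated replicate 1 and 0.01 under the threshold on the log2 scale, then miR-297c and miR-466f, each 0.04 under it in control replicate 3. All 3 miR-297 miRNAs belonged to these 35, as did 14 of the 17 miR-466, 7 of the 8 miR-467 and 11 of the 12 miR-669 miRNAs. The dimmest of the 40 by its median over the 6 samples was miR-669k, at 1.01, 0.99 and 0.98 times in the treated samples, against 1.05, 0.911 and 1.07 times in the controls. For a miRNA at this level the arrays set no lower limit, and in bulk cortex a miRNA confined to few cells cannot be told apart from one at a low level in many.

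The 40 miRNAs could be divided by the repeat they carry. Exact matches of the 6-base motifs ACACAC and UGUGUG were searched in the mature strand as the array lists it. ACACAC stood in 8 of the 40 (20.0%), against 1.43% of the other 559 probes and 2.67% of all 599. UGUGUG stood in 19 (47.5%), against 1.61% of the other probes and 4.67% of all. No miRNA of the 40 held both, and 13 held neither. The third motif, AUAUAU, was found in 1, miR-467g.

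Of the 5 miRNAs above background in any sample, 4 carried ACACAC, which made 4 of the 8 in that class. Outside the 40, 4 of the 8 other probes with ACACAC were above background in at least 1 sample too, beside the 40.9% of all probes. These 8 include the 4 passenger strands of the same families, so they are only in part an outside comparison. Of the 4 above background, 2 were the passenger strands miR-467a* and miR-467b*. The fifth of the 5 miRNAs was miR-669c, the only 1 of the 19 with UGUGUG. Of the 9 other probes with that motif, 5 were above background in at least 1 sample. None of the 13 with neither motif was above background in any sample. In treated replicate 1 the median of the ACACAC class lay at 1.27 times the median empty spot, against 1.07 times for the UGUGUG class and 1.06 times for the rest. In the 5 other samples the class medians lay between 1.04 and 1.14 for ACACAC, 1.01 and 1.10 for UGUGUG, and 1.01 and 1.08 for neither. Near-identical sequences in a class are not independent, and no test was made between classes.

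**Figure D2:**
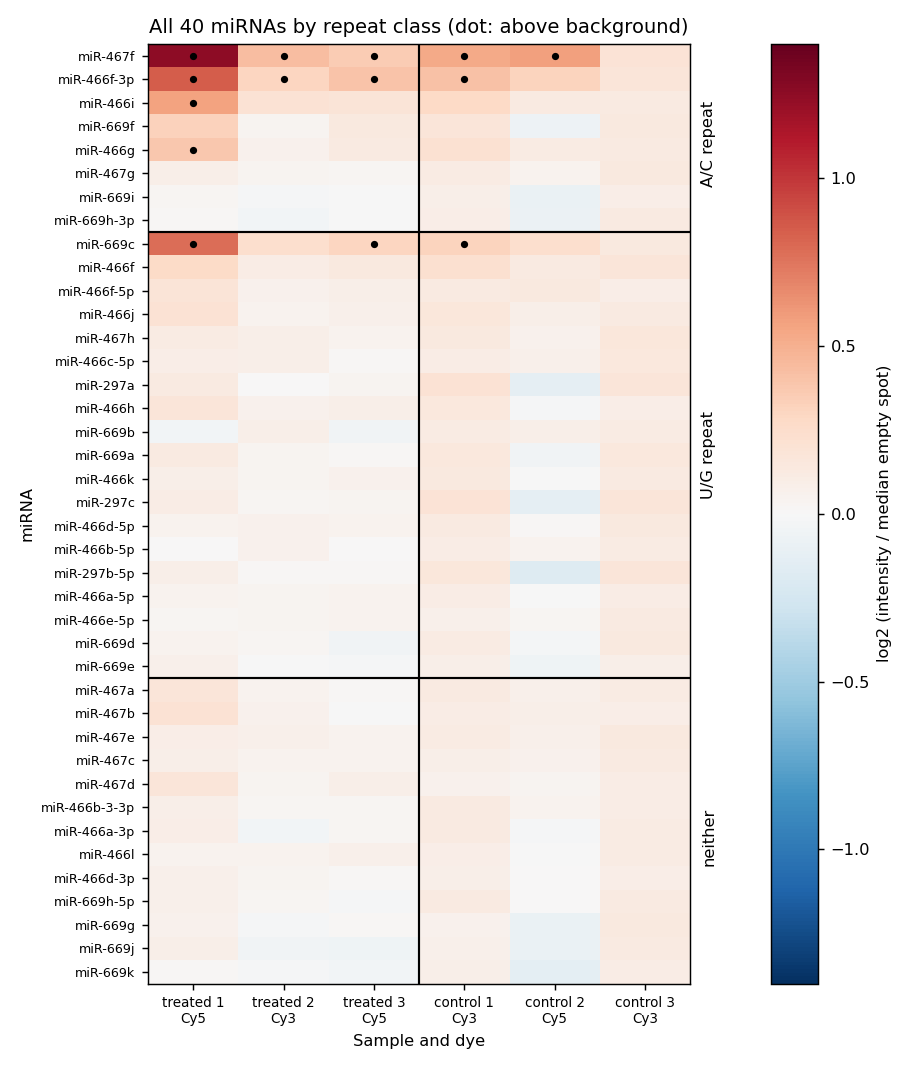
Log2 of the intensity over the median empty spot (colour) for all 40 miRNAs (rows, by repeat class and then by brightness) in the 3 treated and 3 control samples (columns, with the dye); a dot marks a value above background. The dots fall on miR-467f, miR-466f-3p, miR-466i and miR-466g of the A/C repeat class and on miR-669c of the U/G repeat class, and treated replicate 1 holds 5 of them.

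The longest uninterrupted stretch of alternating A and C, a measure taken after the values were seen, was 12 bases in miR-467f and 11 in miR-466f-3p and in miR-466i. Only 9 probes of all 599 had such a stretch of at least 8 bases. These were 6 of the 40 miRNAs and the passenger strands miR-467a*, miR-467b* and miR-467e*, and no probe outside these families. Length of the stretch and detection did not go together throughout. MiR-669f, with 10 bases, and miR-467g, with 9, were above background in no sample. Repeats of this kind occur in many transcripts, and the share of the signal that comes from RNAs other than the named miRNA was not tested.

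Of the 4 passenger strands of these families, 1 was above background in at least 3 samples. MiR-467b* lay at 1.80, 1.19 and 1.19 times the median empty spot in the treated samples, against 1.61, 1.28 and 1.13 times in the controls, with 4 samples above background and the groups overlapping. MiR-467a*, 1 edit from it, was above background in treated replicate 1 and control replicate 1, at 1.71 and 1.37 times. Their guide strands miR-467a and miR-467b were above background in no sample, at no more than 1.12 and 1.15 times. MiR-467e* and miR-297a* were above background in no sample.

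The miR-290 to miR-295 and miR-302 miRNAs, which are known from embryonic stem cells, gave a similar picture. Of 15 such probes, 1 (6.67%) was above background in at least 3 samples, against 32.9% of all probes. That was miR-290-5p, at 2.53, 1.04 and 1.27 times the median empty spot in the treated samples, against 1.33, 0.90 and 1.39 times in the controls. MiR-290-3p, which shares its seed with miR-467a, was above background in no sample.

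Treated and control mice were compared to see whether any of these miRNAs differed under sodium restriction with captopril, a regimen that raises renin expression. The 3 miRNAs above background in at least 3 samples entered a fit of all 197 probes that met this, with limma and a term for the dye, on quantile-normalised log2 intensity. In that fit 0 of the 197 probes (0%) had a Benjamini-Hochberg adjusted p under 0.05, and 1 (0.508%) had an unadjusted p under 0.05. None of the 3 miRNAs was called, and none had an unadjusted p under 0.05. They were among the dimmer of the probes tested, at ranks 61 (miR-467f), 41 (miR-466f-3p) and 28 (miR-669c) of 197 counted from the dimmest. The levels and differences of each miRNA that follow are on this log2 scale.

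MiR-467f stood at 7.003, 7.81 and 6.68 in treated replicates 1, 2 and 3, against 6.95, 7.63 and 6.56 in control replicates 1, 2 and 3. The groups overlapped over nearly their whole range, and the 2 samples numbered 2 were the highest of their groups. It averaged 7.16 ± 0.58 in treated and 7.05 ± 0.54 in control samples (SD, n = 3 each). The dye-adjusted difference was 0.13 (SE 0.46, 95% interval -1.02 to 1.28, limma adjusted p = 0.995).

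MiR-466f-3p stood at 6.78, 7.37 and 6.71 in the treated samples, against 6.76, 7.08 and 6.47 in the controls. Again the groups overlapped and the samples numbered 2 were the highest. It averaged 6.96 ± 0.36 in treated and 6.77 ± 0.31 in control samples (SD, n = 3 each). The difference was 0.21 (SE 0.32, 95% interval -0.58 to 1.01, limma adjusted p = 0.995).

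MiR-669c stood at 6.76, 7.14 and 6.64 in the treated samples, against 6.62, 6.94 and 6.39 in the controls. The groups overlapped here too, with control replicate 2 above treated replicates 1 and 3. It averaged 6.84 ± 0.26 in treated and 6.65 ± 0.27 in control samples (SD, n = 3 each). The difference was 0.20 (SE 0.28, 95% interval -0.51 to 0.90, limma adjusted p = 0.995). Each of these 3 intervals holds both -0.5 and 0.5.

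**Figure D3:**
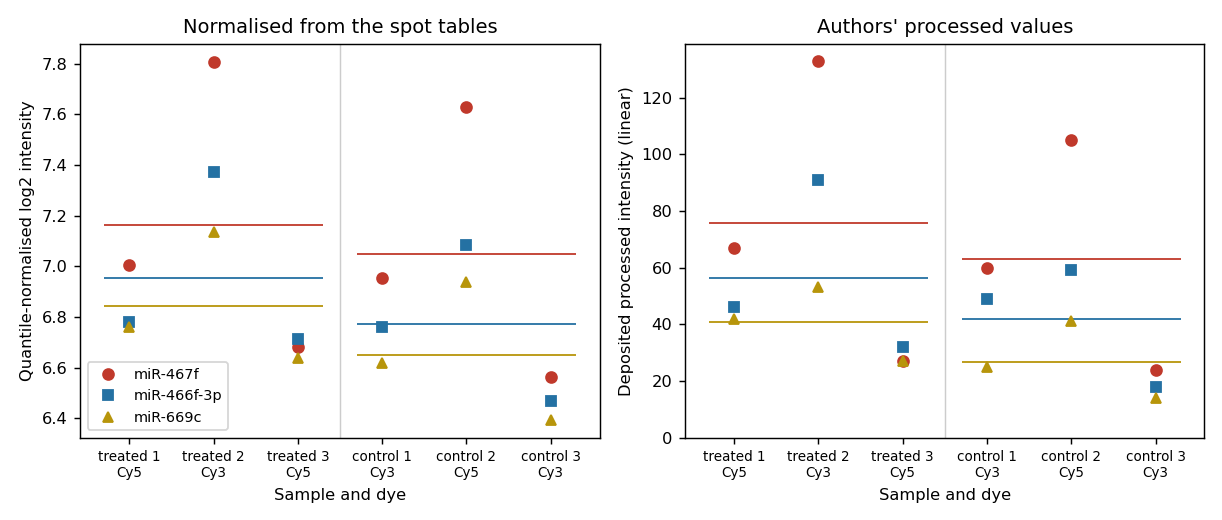
Level of miR-467f, miR-466f-3p and miR-669c in each treated and control sample (horizontal axis, with the dye), as quantile-normalised log2 intensity from the spot tables (left) and as the authors' deposited processed intensity on a linear scale (right); lines are group means of 3 samples. On both scales the samples numbered 2 are the highest and those numbered 3 the lowest of their group for miR-467f, which reads 133 and 105 in treated and control replicate 2 and 27 and 24 in treated and control replicate 3 on the right.

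For the 3 miRNAs the highest and lowest means of the replicate numbers lay further apart than the group means on each scale. Which number was highest depended on the scale. On the normalised scale miR-467f averaged 7.72 over the 2 samples numbered 2 and 6.62 over the 2 numbered 3, a gap of 1.09, whereas the plain treated minus control difference of the group means was 0.12. The same gap was 0.64 for miR-466f-3p and 0.52 for miR-669c, with group differences of 0.19 for each. The authors' deposited processed intensities showed the same order, with 67, 133 and 27 in treated replicates 1, 2 and 3, against 60, 105 and 24 in control replicates 1, 2 and 3. For miR-466f-3p they were 46, 91 and 32 in the treated samples, against 49, 59 and 18 in the controls, and for miR-669c 42, 53 and 27 in the treated samples, against 25, 41 and 14 in the controls. The scaling and centring of these deposited values are unknown. Relative to the empty spots the order changed. The samples numbered 1 then had the highest mean of all 3 miRNAs and those numbered 3 the lowest. On the log2 scale these means were 0.89 and 0.27 for miR-467f, 0.63 and 0.28 for miR-466f-3p, and 0.54 and 0.21 for miR-669c. The treated minus control differences were smaller than these gaps, at 0.25, 0.22 and 0.21. The gap between the samples numbered 2 and 3 lay under those differences, at 0.23, 0.03 and 0.02. The ratio to the empty spots is not normalised between samples. The median of the 197 probes tested below lay at 5.34, 1.37 and 4.87 times the median empty spot in treated replicates 1, 2 and 3. In control replicates 1, 2 and 3 it lay at 2.11, 1.72 and 2.01 times. What the replicate number marks is not given, and its part in these levels was not tested.

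Within same-numbered samples the 3 miRNAs leaned one way on the normalised scale. Treated minus control was above 0 in all 3 pairs for each of them, at 0.05, 0.18 and 0.12 for miR-467f, 0.02, 0.29 and 0.25 for miR-466f-3p, and 0.14, 0.20 and 0.24 for miR-669c. Of all 197 probes, 28 (14.2%) were above 0 in all 3 pairs and 32 were below 0 in all 3. The lean was not the same on other scales. Relative to the empty spots pair 2 lay below 0 for all 3, at -0.13 for miR-467f and -0.01 for both of the others. On that scale, which is not normalised between samples, 33 of the 197 probes (16.8%) were above 0 in all 3 pairs. Only 1 was below 0 in all 3. In the deposited values, as log2(value + 1), pair 1 lay below 0 for miR-466f-3p. MiR-467f and miR-669c were above 0 in all 3 pairs there, as were 17.8% of all 197 probes, and 30 were below 0. With the replicate number as a block in the limma fit, the differences were unchanged and their SE fell to 0.17 for all 3, and the adjusted p was 0.944 for miR-467f and 0.810 for miR-466f-3p and miR-669c. The 95% intervals of that fit were -0.31 to 0.57 for miR-467f, -0.24 to 0.66 for miR-466f-3p and -0.24 to 0.63 for miR-669c, which hold 0.5 but not -0.5. The blocked fit leaves 1 residual degree of freedom per probe.

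The sign of the difference was not the same in the 2 dyes. Within Cy3, treated replicate 2 minus the mean of control replicates 1 and 3 gave 1.05 for miR-467f, 0.76 for miR-466f-3p and 0.63 for miR-669c. Within Cy5, the mean of treated replicates 1 and 3 minus control replicate 2 gave -0.79, -0.34 and -0.24 for the same miRNAs. Treated replicate 2 and control replicate 2 each stand alone for their group in 1 dye, and they had the highest normalised levels of all 3 miRNAs. These within-dye differences are given without a test.

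**Figure D4:**
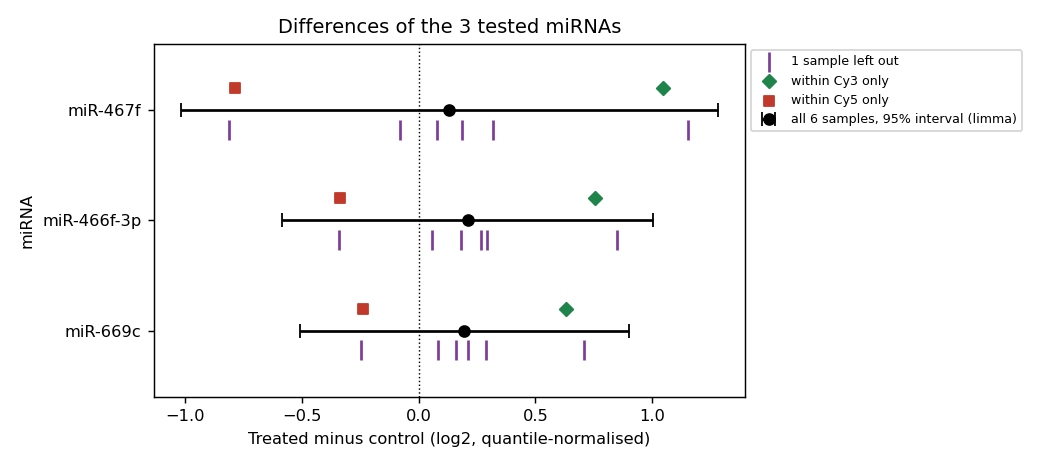
Treated minus control difference (log2, quantile-normalised, horizontal axis) of the 3 tested miRNAs: black points and bars are limma's estimate and 95% interval from all 6 samples, purple ticks the estimates with 1 sample left out, and squares and diamonds the plain differences within Cy5 and Cy3. The bars all cross 0, and the Cy3 and Cy5 differences lie on opposite sides of it for each miRNA.

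When all 599 probes were fitted without the background filter, 0 of the 40 miRNAs had an adjusted p under 0.05 in limma and 0 had an unadjusted p under 0.05, against 0 and 8 of all probes. Their differences ran from -0.07 to 0.22 with a median of 0.004, and 22 of the 40 lay above 0. The smallest unadjusted p of the 40 was 0.169. The largest difference was that of miR-466i, at 0.22 (SE 0.18, 95% interval -0.26 to 0.70, limma adjusted p = 0.998). For the 35 miRNAs at the level of empty spots such differences describe the background more than the miRNA, and they are not given singly.

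No miRNA of the 3 tested had all treated samples on 1 side of all controls, where 2.54% of the 197 probes were higher and 2.03% lower in this way.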

How the data were processed

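Microarray values of 6 samples were used, 3 treated and 3 control, grouped by their titles. Per the file headers, the deposited spot tables hold the mean intensity of each of 3968 spots, 5 for each of 599 miRNAs, with no background subtracted. A deposited table of the authors' processed intensity served as an alternative, since no source used here states its processing. In R 4.3.3 with limma 3.58.1, intensities were background-corrected with normexp (offset 50), log2 values were averaged over 5 spots, and samples were quantile-normalised over all 599 miRNAs. Quantile normalisation gives equal ranks the same value. Detection used uncorrected log2 intensity. MiRNAs above background in at least 3 samples (197) were fitted with lmFit and eBayes (two-sided, group and dye, Benjamini-Hochberg over all 197). All p-values named as limma's come from such a fit. With only 6 arrays, precision was low. The fit was tried on simulated data with planted differences far larger than those of the tested members and without replicate pairs. That trial does not show its power for small differences.

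Members and lists were chosen with earlier results of these data known. The named miRNAs are those above background in any sample, the 3 nearest below the threshold, the brightest and the dimmest, detected members of the other lists, and miRNAs that share an arm, seed or near-identical sequence with them. Of the tissue markers (miR-192, miR-194, miR-204, miR-10a, miR-10b, miR-30a, miR-126-3p, miR-143, miR-145, miR-451, miR-486, miR-144, miR-150, miR-142-3p, miR-223, miR-122, miR-124, miR-1 and miR-133a), 9 are named.

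The labels give each group the numbers 1 to 3 without saying what they mark. When each sample's deviation from its group mean was compared across the 197 miRNAs, pairs 1, 2 and 3 correlated at 0.447, 0.460 and 0.781. Treated replicate 2 with control replicate 1 (0.256) and treated replicate 1 with control replicate 2 (0.246) also correlated. The crossings of replicates 3 with the other numbers ran from -0.572 to -0.452. Deviations from a shared group mean depend on each other, so these correlations are not independent. On these data alone the numbers were used as pairs in the comparison within same-numbered samples and in the blocked fit. The main fit has no term for them.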

Additional observations from a re-analysis of the deposited data

How the results depend on the processing

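The count of 3 of the 40 miRNAs above background became 5 with a threshold of 2 SD, 4 with the 99th percentile of the empty spots and 3 with the median of the 5 spots, beside 242, 237 and 194 of all 599 probes (197 as reported). Counted in at least 1 sample it was 5, and in all 6 samples 0. With 1 sample left out, an alternative chosen after seeing the data, it was 2 to 3. The number of probes called in limma was 0 under each of the 16 alternatives with a test, with 0 to 15 at an unadjusted p under 0.05, the 15 with the replicate block. The replicate block changed no call. The 3 tested differences turned below 0 with scaling to the 75th percentile, at -0.22 for miR-467f, -0.27 for miR-466f-3p and -0.29 for miR-669c, where the median of all 197 probes was -0.29, against -0.01 with quantile normalisation and 0.29 without normalisation. They also turned without treated replicate 2, where control replicate 2 stands alone in the dye-adjusted difference, at -0.81, -0.34 and -0.25. MiR-467f turned as well without control replicate 3 (-0.08). With 1 sample left out the differences ran from -0.81 to 1.15 for miR-467f, from -0.34 to 0.85 for miR-466f-3p and from -0.25 to 0.71 for miR-669c, the highest of each without control replicate 2. Over all alternatives the adjusted p of each stayed at 0.688 or above. Without control replicate 2, 1 of the 3, miR-669c, no longer overlapped between groups and was higher, as were 8.63% of the 197 probes. Without the filter 2 of the 40 did not overlap, miR-466h (higher, as were 1.34% of all 599 probes) and miR-669h-3p (lower, as were 1.67%), both near the empty spots. The signal over the empty spots limits what can be said of the 35 miRNAs never above background.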
